A study of Mus musculus with 14 samples.

Results

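The comparison set 3 lung tumour libraries from mice given the combination beside 3 from mice given T-DM1 alone, 6 of the 14 libraries of the series. The libraries were grouped by treatment label only, while the comparison and the gene lists were chosen with earlier results of these data known. The comparison reads what the kinase inhibitor adds to the antibody conjugate. The combination libraries came from tumours treated with mobocertinib (TAK-788) and T-DM1, as far as the label "combination" and the list of agents in the treatment notes allow it to be read. The T-DM1 libraries came from tumours treated with T-DM1 alone. Both groups shared the C57BL/6 strain, the HER2 Exon20YVMA genotype, lung tumor nodules as the tissue, a treatment described only as long term, and RNA taken from snap-frozen nodules. Doses, days of treatment, ages, the promoter or Cre that drives the mutant receptor, and the number of animals behind the libraries were not given in the sources used here. The p-values therefore measure the spread between these samples, which may be technical. The remaining 8 libraries (3 mobocertinib, 3 with acquired resistance to mobocertinib, 2 vehicle) entered the filter on low counts, the shared estimate of the spread, the means that list averages are centred on and, as levels, the context below. With the 6 libraries alone 15902 genes passed the filter, and edgeR again called 0, with 1592 at an unadjusted p under 0.05.

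HER2, encoded by Erbb2, is a receptor tyrosine kinase that signals with its partners EGFR and HER3 through the RAS-ERK and PI3K-AKT pathways. The YVMA insertion in the kinase domain makes it active without ligand and is found in a subset of human lung adenocarcinomas. Mobocertinib is an irreversible inhibitor of the EGFR and HER2 kinases, while T-DM1 (ado-trastuzumab emtansine) is an antibody against HER2 that carries the microtubule poison DM1 into the cell, where it is set free in lysosomes. When ERK is active, cells transcribe its own phosphatases and other feedback genes, so the level of those transcripts is widely used as a readout of the pathway, and when AKT is inactive, FOXO factors enter the nucleus and switch on their targets.

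Total counts were 22652221, 23636046 and 24043238 in the combination libraries, against 22332188, 31287261 and 23129355 in the T-DM1 libraries. Of 55291 gene symbols, 24822 had no count in any library and 17933 passed the filter on low counts. Pearson's r of log2 CPM (counts scaled to the library size) across genes was 0.925 to 0.978 in the 6 pairs of libraries within a group and 0.929 to 0.977 in the 9 pairs between the groups, so the groups did not separate at the level of the whole profile. No 2 libraries were identical. As a check of the tissue, the surfactant gene Sftpc, the defining marker of alveolar type 2 cells, was abundant throughout at 10467, 13328 and 23922 CPM in the combination libraries, against 3137, 46306 and 9884 CPM in the T-DM1 libraries.

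The T-DM1 libraries were not alike. Xist and the sum of the Y-linked genes are given as CPM of the library total. Sums over marker genes, and single genes elsewhere, are given as CPM after TMM normalization. Xist, the transcript of the inactive X chromosome, was at 0, 0.0846 and 0.541 CPM in the combination libraries, against 44.1, 21.3 and 0.562 CPM in T-DM1 libraries 1, 2 and 3. The sum of the Y-linked genes Ddx3y, Eif2s3y, Kdm5d and Uty was 77.3, 80.9 and 79.9 CPM in the combination libraries, against 6.99, 18 and 80.4 CPM in the T-DM1 libraries. T-DM1 library 3 thus had the sex-linked levels of the combination libraries, while T-DM1 libraries 1 and 2 did not. T-DM1 library 1 also had higher levels of markers of other tissues. The 15 cardiac and skeletal muscle markers tested summed to 69.0, 11.8 and 34.9 CPM in the combination libraries, against 650, 52.5 and 25.0 CPM in the T-DM1 libraries, with the atrial peptide gene Nppa at 51.4 CPM in T-DM1 library 1 and at no more than 0.0786 CPM in the other 5. The 6 adipocyte markers tested summed to 57.7, 60.8 and 67.5 CPM in the combination libraries, against 317, 37.8 and 53.7 CPM in the T-DM1 libraries. The adipsin gene Cfd made up most of the excess at 244 CPM in T-DM1 library 1, and Pck1, an enzyme of glucose synthesis, was at 4.92 CPM there and at 0 in the other 5. The 21 B cell and plasma cell markers summed to 8627, 2185 and 1594 CPM in the combination libraries, against 38659, 4590 and 2626 CPM in the T-DM1 libraries, so T-DM1 library 1 was the highest of the 6. T-DM1 library 2 was the highest in alveolar type 2 markers, whose 14 members summed to 23527, 23910 and 36133 CPM in the combination libraries, against 10500, 85988 and 22976 CPM in the T-DM1 libraries. In tissue RNA, fewer cells of a type and less RNA per cell cannot be told apart. Results below are given with T-DM1 library 1 left out, and against T-DM1 library 3 alone, where these values bear on them.

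**Figure D1:**
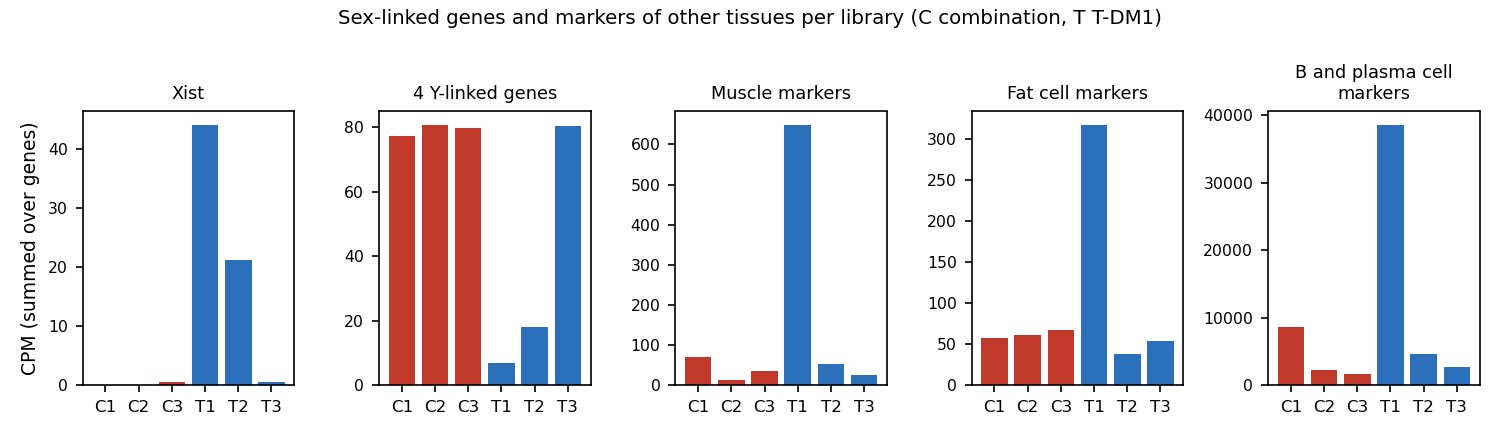
Sex-linked genes and markers of other tissues in each library, as CPM summed over the genes of each panel (vertical axis); C1 to C3 are combination libraries (red) and T1 to T3 are T-DM1 libraries (blue). T1 is the highest bar for Xist and for the muscle, fat and B and plasma cell markers, while T3 lies near the combination libraries in every panel.

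No gene passed a Benjamini-Hochberg adjusted p of 0.05 in edgeR's quasi-likelihood test, out of 17933 tested. The smallest adjusted p was 0.201, for Dusp6. At an unadjusted p under 0.05 there were 915 genes (5.1% of those tested), 621 of them lower in the combination (3.46%) and 294 higher (1.64%). This count was 481 without combination library 2 and 596 without combination library 3, and it was 235 (1.03% lower and 0.284% higher) when a term for the sex-linked genes was added to the fit. On log2(TPM + 1), from the deposited TPM (transcript levels scaled by gene length and library size), the split at that p was 365 lower (2.31%) and 428 higher (2.71%). DESeq2 called 69 genes, 61 lower (0.34%) and 8 higher (0.0446%), and all 69 had an unadjusted p under 0.05 in edgeR; limma-voom called 0 genes, with 938 at an unadjusted p under 0.05. The median standard error of a log2 fold change was 0.43, and the median 95% interval reached 0.93 to either side. Because no gene passed, the results below are given as levels in each library, as fold changes with their intervals, and as counts of genes whose groups did not overlap. Over all genes tested, the 3 combination libraries lay below all 3 T-DM1 libraries for 7.81% and above them for 8.41%, and the median log2 fold change was -0.04. Because the gene lists were chosen with earlier results of these data known, setting their counts beside such shares is description only.

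**Figure D2:**
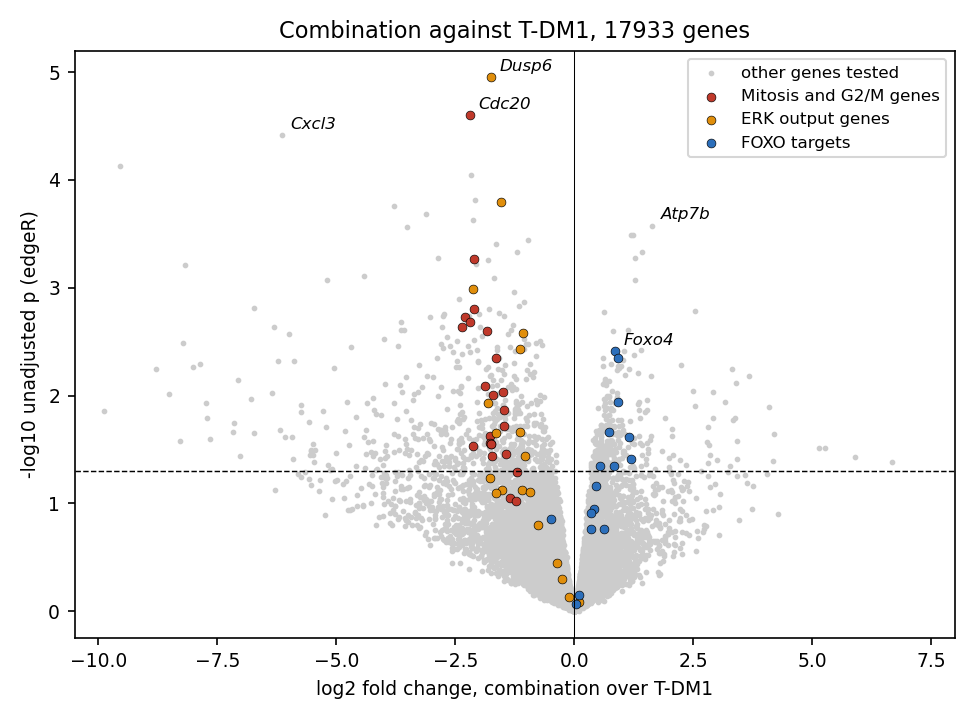
Log2 fold change of the combination over T-DM1 (horizontal axis) against -log10 of the unadjusted edgeR p (vertical axis) for 17933 genes, with the dashed line at an unadjusted p of 0.05. Mitosis and G2/M genes (red) all lie left of 0, as do 18 of 19 ERK output genes (orange). Of the 16 genes of the FOXO targets list (blue), which includes FOXO factor genes, 15 lie right of 0. No gene passed after adjustment.

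Genes known as transcriptional output of ERK signalling had lower levels in the combination tumours, although none passed edgeR's test after adjustment. DESeq2 called 3 of the 19 listed as lower, Dusp6, Dusp5 and Dusp4 (0.34% of all genes). The ERK phosphatase gene Dusp6 (chromosome 10, 99263231 to 99267489, mm10) had the smallest p of all genes. It was at 54.6, 48.2 and 41.6 CPM in the combination libraries, against 180, 141 and 162 CPM in the T-DM1 libraries, and the 2 groups lay far apart with no overlap. Its log2 fold change was -1.74 ± 0.25 (SE, 95% interval -2.29 to -1.20, adjusted p = 0.201). The nuclear ERK phosphatase gene Dusp5 was at 10.7, 9.53 and 7.59 CPM in the combination libraries, against 22.6, 33.4 and 24.8 CPM in the T-DM1 libraries (log2 fold change -1.54 ± 0.29 SE, adjusted p = 0.391). Another phosphatase gene, Dusp4, was at 12.6, 6.65 and 7.85 CPM in the combination libraries, against 29.6, 52.0 and 36.8 CPM in the T-DM1 libraries (log2 fold change -2.13 ± 0.50 SE, adjusted p = 0.629). Dusp4, Spred2 and Phlda1 were chosen for naming after their values were seen. For each of these phosphatases the highest combination library lay below the lowest T-DM1 library. Among feedback inhibitors of RAS signalling, Spry4 was at 6.70, 5.55 and 6.85 CPM in the combination libraries, against 8.99, 17.0 and 16 CPM in the T-DM1 libraries (log2 fold change -1.14 ± 0.32 SE, adjusted p = 0.76). Spred2, of the same kind, was at 26.7, 12.1 and 17.6 CPM in the combination libraries, against a narrow 38.4, 41.5 and 38.9 CPM in the T-DM1 libraries (log2 fold change -1.07 ± 0.29 SE, adjusted p = 0.76).

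Transcription factors and cell cycle genes downstream of ERK lay on the same side. The ETS factor gene Etv4 was at 4.99, 2.17 and 4.68 CPM in the combination libraries, against 9.46, 18.9 and 13.3 CPM in the T-DM1 libraries (log2 fold change -1.81 ± 0.62 SE, adjusted p = 0.901). Ccnd1, which encodes the G1 cyclin D1, was at 410, 217 and 413 CPM in the combination libraries, against 893, 637 and 752 CPM in the T-DM1 libraries (log2 fold change -1.13 ± 0.43 SE, adjusted p = 0.94). Myc, encoding a growth-promoting transcription factor, was at 26.6, 16.1 and 20.4 CPM in the combination libraries, against 30.6, 36.1 and 63.2 CPM in the T-DM1 libraries (log2 fold change -1.04 ± 0.44 SE, adjusted p = 0.94). These 3 genes did not overlap between the groups in normalized CPM, but for Myc the gap was small beside the spread among the T-DM1 libraries. As TPM the groups overlapped for Myc, at 19.93, 10.02 and 14.25 in the combination libraries, against 19.44, 23.53 and 44.16 in the T-DM1 libraries. The death-associated gene Phlda1 was at 57.2, 35.6 and 29.3 CPM in the combination libraries, against 68.9, 208 and 103 CPM in the T-DM1 libraries. As TPM its groups overlapped, with 47.06 in combination library 1 and 45.89 in T-DM1 library 1. Etv5, an ETS factor gene that alveolar type 2 cells also express, overlapped at 23.5, 17.6 and 25.9 CPM in the combination libraries, against 18.2, 138 and 34.7 CPM in the T-DM1 libraries (log2 fold change -1.51, 95% interval -3.20 to 0.18), with its highest value in the T-DM1 library that was also highest in alveolar type 2 markers.

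Of the 19 ERK output genes, all tested, 12 had no overlap with the combination lower and none with it higher, where the shares over all genes are 7.81% and 8.41%; 9 had an unadjusted p under 0.05 (3.46% of all genes are lower at that p). Counts of genes without overlap rest on normalized CPM, and Myc and Phlda1, which are among the 12, overlapped as TPM. The median log2 fold change was -1.13, and 18 of the 19 were negative. The exception was the immediate early gene Egr1 at 0.11. Without T-DM1 library 1, 14 of 19 did not overlap (11.8% of all genes), and 16 of 19 lay below T-DM1 library 3 in every combination library (25.9% of all genes). With the sex-linked term the median was -1.19 and 6 genes had an unadjusted p under 0.05 (1.03% of all genes). Relative to each gene's mean over the 14 libraries, the 19 genes averaged -0.02, -0.42 and -0.28 log2 units in the combination libraries and 0.50, 1.05 and 0.87 in the T-DM1 libraries. Mobocertinib-only libraries ranged between -0.84 and -0.58 on that scale, and vehicle libraries between 0.17 and 0.52. Ribosomal protein genes held 20.3% and 21.3% of the counts in the vehicle libraries, against 3.71% to 7.67% in the others. The vehicle TMM factors were 0.677 and 0.542, against 0.988 to 1.23 in the others. How far this shifted the vehicle levels given here and below was not tested. Dusp6 itself was at 34.3, 34.1 and 47.1 CPM with mobocertinib alone and at 217 and 232 CPM with vehicle, so the combination values stood near the mobocertinib values. Of 17 AP-1 and immediate early genes, 6 had no overlap with the combination lower and 1 with it higher, with a median of -0.45. The nuclear receptor gene Nr4a1 was at 12.3, 18.8 and 18.3 CPM in the combination libraries, against 20.7, 53.8 and 18 CPM in the T-DM1 libraries. The zinc finger gene Egr3 was at 2.68, 1.69 and 0.405 CPM in the combination libraries, against 9.67, 1.67 and 4.48 CPM in the T-DM1 libraries, so both genes overlapped.

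**Figure D3:**
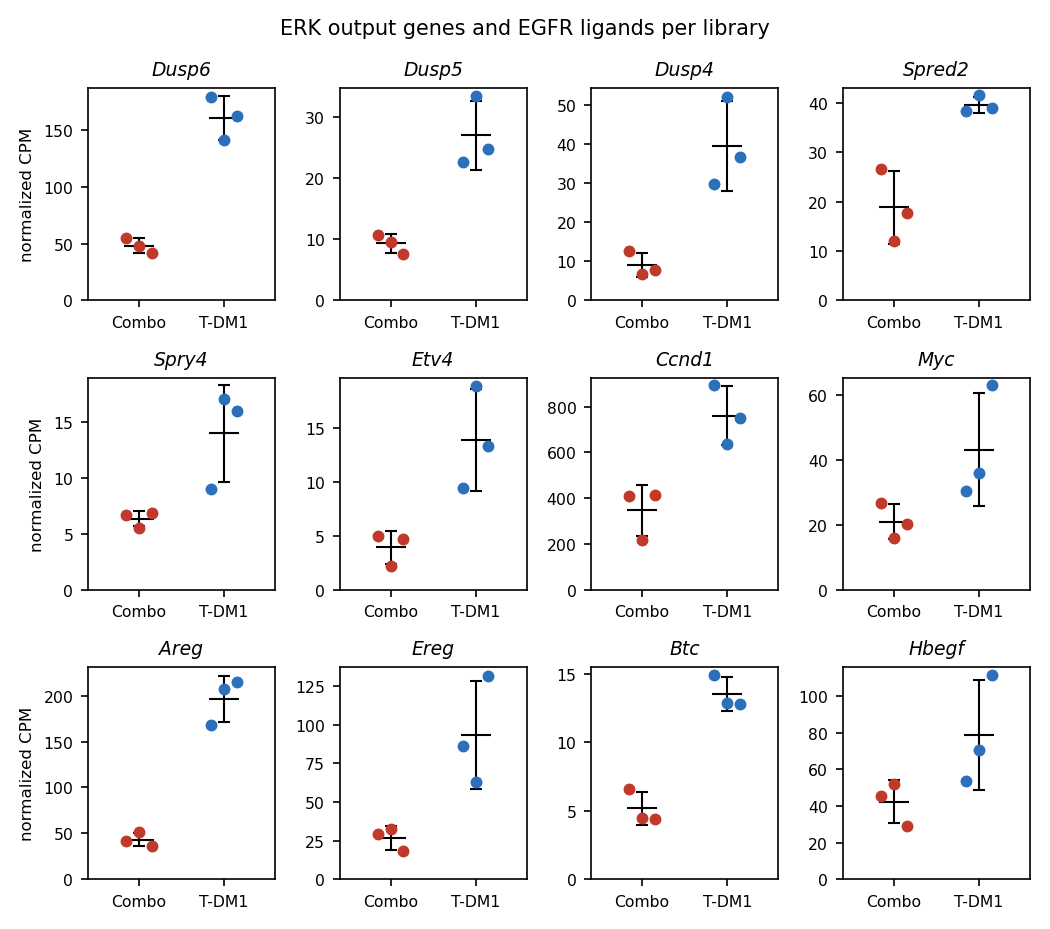
Normalized CPM (vertical axes, each from 0) of 8 ERK output genes and 4 EGFR ligand genes in the combination libraries (red) and the T-DM1 libraries (blue), 1 point per library with the mean and SD in black. All 12 panels hold genes without overlap in normalized CPM: the highest red point lies below the lowest blue point. The gap is wide for Dusp6 and Areg and narrow for Myc and Hbegf, whose groups overlapped as TPM. In the full lists, 12 of 19 ERK output genes and 5 of 13 ERBB receptors and ligands tested had no overlap.

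The 3 receptors of the family that were tested overlapped between the groups. Of the 10 ligands tested, 5 had no overlap with the combination lower (7.81% of all genes), and 1 of these, Epgn, was near the floor. Erbb2 was at 651, 446 and 306 CPM in the combination libraries, against 313, 333 and 357 CPM in the T-DM1 libraries, and the groups overlapped (log2 fold change 0.48, 95% interval -0.40 to 1.36). The labels do not say whether transcripts of the mutant allele are counted under Erbb2. Erbb3, the kinase-poor partner of HER2, was at 265, 190 and 299 CPM in the combination libraries, against 143, 194 and 182 CPM in the T-DM1 libraries (log2 fold change 0.54, 95% interval -0.39 to 1.47). Egfr was at 28.3, 15.1 and 31.9 CPM in the combination libraries, against 40.2, 8.58 and 29.6 CPM in the T-DM1 libraries (log2 fold change -0.06, 95% interval -1.20 to 1.09), and its sign changed under several other settings. The intervals leave room for a doubling of Erbb2 or Erbb3. Per length, Erbb2 averaged 70.5 ± 18.8 TPM in the combination libraries and 50.4 ± 7.5 TPM in the T-DM1 libraries (SD, n = 3 each). Egfr was about an order lower, at 5.95 ± 2.50 TPM in the combination libraries and 5.44 ± 3.49 TPM in the T-DM1 libraries (SD, n = 3 each).

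Areg (chromosome 5, 91139599 to 91148432, mm10), which encodes the EGFR ligand amphiregulin, was the most abundant ligand transcript per length among the 4 described. It was at 41.8, 51.0 and 36.4 CPM in the combination libraries, against 168, 208 and 215 CPM in the T-DM1 libraries, with no overlap (log2 fold change -2.19 ± 0.63 SE, 95% interval -3.54 to -0.84, adjusted p = 0.76). As TPM it averaged 52.1 ± 7.29 in the combination libraries and 226 ± 39.6 in the T-DM1 libraries (SD, n = 3 each). Ereg, which encodes epiregulin, was at 29.3, 32.6 and 18.2 CPM in the combination libraries, against 86.1, 62.7 and 132 CPM in the T-DM1 libraries (log2 fold change -1.81 ± 0.61 SE, adjusted p = 0.901). Of 2 further ligand genes, chosen after their values were seen, Btc for betacellulin was at 6.58, 4.49 and 4.42 CPM in the combination libraries, against 14.9, 12.8 and 12.8 CPM in the T-DM1 libraries. Hbegf, for the heparin-binding ligand, was at 45.7, 52.1 and 29.1 CPM in the combination libraries, against 53.6, 70.8 and 112 CPM in the T-DM1 libraries. None of the 4 overlapped in normalized CPM. As TPM the groups overlapped for Hbegf, at 30.04, 29.49 and 17.61 in the combination libraries, against 28.92, 39.66 and 69.36 in the T-DM1 libraries. In the mobocertinib libraries Areg was at 22.5, 34.1 and 11.2 CPM. Of 15 receptor and ligand genes of the family, 13 were tested, and none lay above T-DM1 without overlap. The 5 ligands without overlap were Areg, Ereg, Btc, Hbegf and Epgn. Of these, Epgn was at 0, 0.07 and 0 TPM in the combination libraries, against 0.23, 0.33 and 0.06 TPM in the T-DM1 libraries. It was thus near the floor, and as TPM its groups overlapped. The other 5 (Egf, Nrg1, Nrg2, Nrg4 and Tgfa) overlapped, with a log2 fold change of 0.21 for Nrg1. These 6 further names were added after their values were seen. Without T-DM1 library 1 the count without overlap was again 5 (11.8% of all genes).

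Of 11 genes listed as negative regulators of ERBB receptors, 4 had no overlap with the combination higher (8.41% of all genes) and 1 with it lower (7.81%). The median log2 fold change was 0.11. Cblb, a ubiquitin ligase that marks receptors for breakdown, was at 42.6, 33.3 and 61.4 CPM in the combination libraries, against 23.8, 20.6 and 30.4 CPM in the T-DM1 libraries (log2 fold change 0.88 ± 0.26 SE, adjusted p = 0.775). Lrig2, of a family of leucine-rich membrane proteins of which LRIG1 restrains ERBB receptors, was at 15.8, 17.6 and 14.4 CPM in the combination libraries, against 11.6, 9.44 and 13.0 CPM in the T-DM1 libraries (log2 fold change 0.49 ± 0.22 SE, adjusted p = 0.959).

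Genes of the FOXO targets list were mostly higher in the combination tumours. The list holds known FOXO targets, which the PI3K-AKT arm holds down, and also the factor genes Foxo1, Foxo3 and Foxo4. Foxo4, on the X chromosome and encoding a FOXO factor, was at 51.9, 60.0 and 50.4 CPM in the combination libraries, against 28.1, 23.8 and 37.4 CPM in the T-DM1 libraries (log2 fold change 0.86 ± 0.24 SE, adjusted p = 0.76). Bcl2l11, which encodes the pro-death protein BIM, was at 45.8, 43.2 and 41.4 CPM in the combination libraries, against 22.6, 29.3 and 17.2 CPM in the T-DM1 libraries (log2 fold change 0.91 ± 0.27 SE, adjusted p = 0.775). In both genes every combination library lay above every T-DM1 library. Of 4 further members chosen after their values were seen, the PI3K inhibitor gene Pik3ip1 was at 45.5, 48.0 and 47.5 CPM in the combination libraries, against 24.2, 21.1 and 28.8 CPM in the T-DM1 libraries. The insulin receptor adaptor gene Irs2 was at 57.0, 47.8 and 57.2 CPM in the combination libraries, against 32.9, 33.3 and 31.1 CPM in the T-DM1 libraries. Pdk4, for a kinase that closes glucose entry into the mitochondrial cycle, was at 23.5, 25.8 and 33.9 CPM in the combination libraries, against 22, 5.94 and 9.59 CPM in the T-DM1 libraries. Pik3ip1 and Irs2 stood well apart, while for Pdk4 T-DM1 library 1 came close to the combination. Tsc22d3, which also responds to glucocorticoids, was at 105, 98.7 and 225 CPM in the combination libraries, against 75.1, 49.7 and 61.5 CPM in the T-DM1 libraries.

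Of the 16 genes of the FOXO targets list, all tested, 11 had no overlap with the combination higher (8.41% of all genes) and none with it lower (7.81%). Of the 16, 15 were positive, and the median log2 fold change was 0.59. At an unadjusted p under 0.05 there were 8, all higher (1.64% of all genes). That count was 5 without combination library 1 (1.21% of all genes), 3 without combination library 3 (1.06%), 5 higher and 1 lower without T-DM1 library 1 (0.883% higher), 4 without T-DM1 library 2 (1.7%) and 4 without T-DM1 library 3 (1.26%). The median lay between 0.52 and 0.68 in the 6 fits that left out a library. Without T-DM1 library 1, 12 of 16 did not overlap (12.5% of all genes), and 12 of 16 lay above T-DM1 library 3 in every combination library (27.4% of all genes). With the sex-linked term the median was 0.53 and 4 genes, all higher, had an unadjusted p under 0.05 (0.284% of all genes). On the same centred scale as above, the 16 genes averaged 0.26, 0.10 and 0.36 log2 units in the combination libraries and -0.25, -0.40 and -0.34 in the T-DM1 libraries, with 0.21 to 0.50 in the mobocertinib libraries and -1.05 to -1.03 in the vehicle libraries. The low vehicle level was not particular to this list. Other receptor tyrosine kinases lay at -1.39 to -0.70 in vehicle, drug efflux transporters at -1.20 to -1.10 and YAP and TEAD targets at -1.54 to -1.10. Not all lists were low there, and ribosomal protein genes lay at 1.92 to 2.30.

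In normalized CPM, all 23 genes of mitosis and the G2/M phase were lower in every combination library than in every T-DM1 library. The share of all genes with that order is 7.81%. As TPM the groups overlapped for Cenpf, at 1.46, 0.22 and 0.54 in the combination libraries, against 1.07, 0.99 and 0.70 in the T-DM1 libraries. Cdc20 (chromosome 4, 118432901 to 118437352, mm10), the activator of the ubiquitin ligase that triggers anaphase, had the second smallest p of all genes. It was at 4.42, 2.91 and 3.72 CPM in the combination libraries, against 18.2, 17.3 and 14.9 CPM in the T-DM1 libraries (log2 fold change -2.19 ± 0.34 SE, 95% interval -2.93 to -1.45, adjusted p = 0.226). Its values were tight within each group. Kif20a, for a kinesin needed in cell division, was at 3.94, 2.13 and 2.03 CPM in the combination libraries, against 14.1, 8.48 and 12 CPM in the T-DM1 libraries (log2 fold change -2.10 ± 0.46 SE, adjusted p = 0.455). The proliferation marker Mki67 was at 11.1, 5.32 and 6.34 CPM in the combination libraries, against 38.6, 20.8 and 23.9 CPM in the T-DM1 libraries (log2 fold change -1.87 ± 0.60 SE, adjusted p = 0.855). Top2a, for the topoisomerase that untangles replicated chromosomes, was at 10.4, 5.95 and 6.71 CPM in the combination libraries, against 33.1, 15 and 15.9 CPM in the T-DM1 libraries (log2 fold change -1.47 ± 0.55 SE, adjusted p = 0.94). In Mki67 and Top2a, combination library 1 was the highest of its group and T-DM1 library 1 the highest of the other.

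Of 4 members chosen after their values were seen, Plk1, encoding a mitotic entry kinase, was at 2.52, 1.22 and 0.921 CPM in the combination libraries, against 12.3, 5.79 and 5.74 CPM in the T-DM1 libraries (log2 fold change -2.35 ± 0.62 SE, adjusted p = 0.76). The B-type cyclin gene Ccnb2 was at 2.72, 1.54 and 2.14 CPM in the combination libraries, against 16.6, 6.97 and 8.05 CPM in the T-DM1 libraries. The mitotic kinase gene Cdk1 was at 5.48, 4.53 and 5.38 CPM in the combination libraries, against 25.6, 16.8 and 12.2 CPM in the T-DM1 libraries. T-DM1 library 1 was the highest for each, and the other T-DM1 libraries still lay above the combination. Ube2c, for the ubiquitin-conjugating enzyme that works with Cdc20, was at 3.73, 2.80 and 2.98 CPM in the combination libraries, against 22.4, 8.73 and 9.98 CPM in the T-DM1 libraries.

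Genes of this phase are known to share a promoter architecture, a cell cycle homology region (CHR) with nearby CCAAT boxes, through which the DREAM and NF-Y complexes act. The promoter windows of Cdc20 (chr4:118437294-118437593, minus strand), Plk1 (chr7:122159185-122159484, plus strand), Ccnb2 (chr9:70421505-70421804, minus strand) and Cdk1 (chr10:69352863-69353162, minus strand) are shown because all 23 genes lay on the same side. They come from RefSeq on GRCm38.p6, run 5′ to 3′ on the gene's strand from 250 bases before the start of transcription to 50 after it, and have in capitals the CHR letters (TTTGAA or TTCGAA) and the CCAAT letters, searched on both strands, so that CCAAT on the other strand reads ATTGG.
Cdc20: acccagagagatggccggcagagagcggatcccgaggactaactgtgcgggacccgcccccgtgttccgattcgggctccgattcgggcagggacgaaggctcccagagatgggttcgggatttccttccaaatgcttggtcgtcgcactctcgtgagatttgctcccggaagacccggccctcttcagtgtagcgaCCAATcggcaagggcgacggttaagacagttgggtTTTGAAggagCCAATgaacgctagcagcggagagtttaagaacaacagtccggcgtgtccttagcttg
Plk1: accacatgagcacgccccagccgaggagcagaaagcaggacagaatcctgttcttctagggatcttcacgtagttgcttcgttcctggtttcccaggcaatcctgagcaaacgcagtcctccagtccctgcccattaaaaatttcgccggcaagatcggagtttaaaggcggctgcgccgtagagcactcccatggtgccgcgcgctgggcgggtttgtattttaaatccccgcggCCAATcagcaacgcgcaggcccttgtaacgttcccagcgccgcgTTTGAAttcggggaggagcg
Ccnb2: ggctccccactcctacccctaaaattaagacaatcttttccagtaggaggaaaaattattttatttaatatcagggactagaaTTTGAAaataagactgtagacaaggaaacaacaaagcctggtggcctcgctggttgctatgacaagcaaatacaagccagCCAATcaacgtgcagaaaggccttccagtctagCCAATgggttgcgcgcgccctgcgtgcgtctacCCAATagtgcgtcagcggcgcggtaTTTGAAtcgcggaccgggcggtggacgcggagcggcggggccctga
Cdk1: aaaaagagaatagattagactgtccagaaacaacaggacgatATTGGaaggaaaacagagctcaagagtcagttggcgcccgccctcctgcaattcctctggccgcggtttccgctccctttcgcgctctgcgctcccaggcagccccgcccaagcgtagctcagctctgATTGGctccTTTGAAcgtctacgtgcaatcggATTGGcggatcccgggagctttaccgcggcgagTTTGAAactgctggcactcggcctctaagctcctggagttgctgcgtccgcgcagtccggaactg
Of the 23 genes, 19 had a window in the table. The CHR letters were found in 15 of 19 (78.9%), against 21.7% of the 27025 genes with a window, and the CCAAT letters in 17 of 19 (89.5%), against 41.1%. Among 17 windows of DNA replication genes the CHR letters were in 4 (23.5%), near the share of all genes. In Cdc20 the CHR match began 18 bases before the start of transcription, and in Plk1 30 bases after it. A match is a description of these letters and not a measured binding site.

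At an unadjusted p under 0.05 there were 20 of the 23 mitosis genes, all lower. That count was 10 without T-DM1 library 1 (2.58% of all genes) and 11 without combination library 2 (1.84%), and it was 2 with the sex-linked term in the fit (1.03%). The median log2 fold change was -1.75, with members between -2.35 and -1.20. It was -1.43 without T-DM1 library 1 and -0.98 with the sex-linked term, and all 23 stayed negative in both fits. In normalized CPM without T-DM1 library 1, all 23 still had no overlap (11.8% of all genes). All 23 also lay below T-DM1 library 3, whose sex-linked levels match those of the combination libraries, in every combination library (25.9% of all genes). DESeq2 called 7 of the 23 as lower, Cdc20, Kif20a, Ccnb1, Ccnb2, Ube2c, Plk1 and Cdk1 (0.34% of all genes). On the centred scale the 23 genes averaged -0.10, -0.67 and -0.47 log2 units in the combination libraries and 1.65, 0.86 and 0.86 in the T-DM1 libraries. Mobocertinib libraries ranged between -1.51 and -0.46, and vehicle libraries between 0.79 and 1.24. The B cell and plasma cell sum was highest in T-DM1 library 1, and its part in the result was not tested beyond the values without that library.

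**Figure D4:**
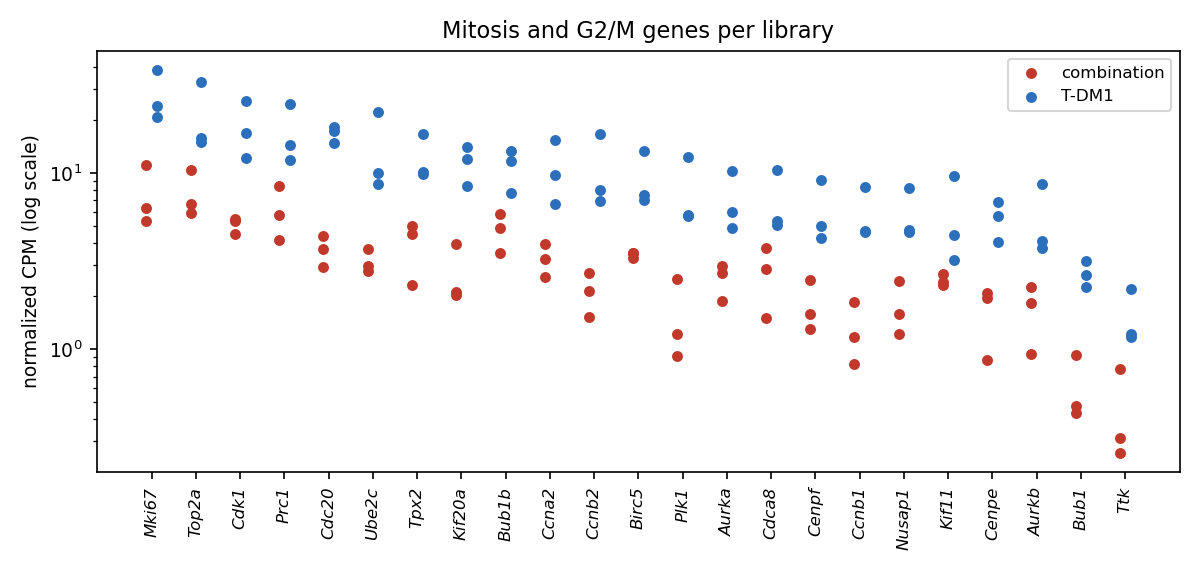
Normalized CPM on a log scale (vertical axis) of the 23 mitosis and G2/M genes, ordered by their mean in T-DM1, with the 3 combination libraries in red and the 3 T-DM1 libraries in blue. For each of the 23 genes the highest red point lies below the lowest blue point.

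Genes of DNA replication and the G1/S transition were lower at the median in the combination. All 23 were tested and negative, 14 had no overlap with the combination lower (7.81% of all genes), and the median was -0.73. Uhrf1, which keeps DNA methylation in place behind the replication fork, was at 4.55, 4.06 and 2.98 CPM in the combination libraries, against 19.5, 8.48 and 11.9 CPM in the T-DM1 libraries (log2 fold change -1.78 ± 0.55 SE, adjusted p = 0.817). Rrm2, a subunit of the enzyme that makes deoxynucleotides, was at 4.22, 3.15 and 3.91 CPM in the combination libraries, against 17.1, 8.30 and 5.62 CPM in the T-DM1 libraries (log2 fold change -1.46 ± 0.49 SE, adjusted p = 0.901). The replication clamp gene Pcna, chosen after its values were seen, overlapped at 49.4, 55.1 and 44.3 CPM in the combination libraries, against 54.9, 51.6 and 47.3 CPM in the T-DM1 libraries. With an unadjusted p under 0.05 and lower there were 7 of 23 (3.46% of all genes). That count was 1 without T-DM1 library 1 (2.58%), near the share of all genes, 3 without combination library 2 (1.84%) and 0 with the sex-linked term (1.03%), where the median was -0.25. The cell cycle inhibitor gene Cdkn1a overlapped at 279, 327 and 258 CPM in the combination libraries, against 252, 409 and 307 CPM in the T-DM1 libraries (log2 fold change -0.17, 95% interval -0.82 to 0.49).

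Glucose metabolism and the hypoxia response lay lower in the combination, while ribosome biogenesis differed by a small amount. Of 23 glycolysis and hypoxia genes, 13 had no overlap with the combination lower (7.81% of all genes) and none with it higher (8.41%). The median was -0.59. The 2 with the smallest p overlapped, and each was highest in T-DM1 library 1. Adm, for the vasodilator peptide adrenomedullin, was at 9.13, 5.12 and 6.67 CPM in the combination libraries, against 96.4, 5.91 and 26.4 CPM in the T-DM1 libraries. Egln3, for an oxygen-sensing hydroxylase, was at 15.5, 18.5 and 8.22 CPM in the combination libraries, against 160, 15.7 and 55.9 CPM in the T-DM1 libraries. Among members chosen after their values were seen, the lactate dehydrogenase gene Ldha was at 870, 820 and 744 CPM in the combination libraries, against 1794, 1535 and 1472 CPM in the T-DM1 libraries, with narrow groups that did not overlap (log2 fold change -0.98 ± 0.41 SE, adjusted p = 0.94). The lactate exporter gene Slc16a3 was at 9.74, 10.7 and 9.40 CPM in the combination libraries, against 11.7, 23.4 and 23.6 CPM in the T-DM1 libraries. With an unadjusted p under 0.05 and lower there were 7 of 23 (3.46% of all genes). That count was 3 without T-DM1 library 1 (2.58%), 4 without combination library 2 (1.84%), 4 without combination library 3 (2.27%) and 4 with the sex-linked term (1.03%). Without T-DM1 library 1, 16 of 23 did not overlap (11.8% of all genes). In every combination library 21 of 23 lay below T-DM1 library 3 (25.9% of all genes).

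Of 20 MYC and ribosome biogenesis genes, 8 had no overlap with the combination lower (7.81% of all genes), and the median was -0.34. Rrs1, for a ribosome assembly factor, was at 23.2, 21.0 and 17.9 CPM in the combination libraries, against 37.4, 31.5 and 31.1 CPM in the T-DM1 libraries (log2 fold change -0.69 ± 0.19 SE, adjusted p = 0.76). Fbl, for the methyltransferase fibrillarin, was at 21.0, 22.9 and 26.6 CPM in the combination libraries, against 43.1, 26.3 and 36.3 CPM in the T-DM1 libraries (log2 fold change -0.58 ± 0.23 SE), and overlapped by a small margin. The 26 cytosolic ribosomal protein genes had no member without overlap in either direction, with a median of -0.05, and 3 of 23 oxidative phosphorylation genes had no overlap with the combination lower, with a median of -0.06.

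Genes tied to the action of the conjugate differed little as groups. Of 16 tubulin genes, the target family of DM1, 3 had no overlap with the combination lower (7.81% of all genes) and none with it higher (8.41%). The median was -0.01. Tubb6, a beta-tubulin, was at 16.4, 11.7 and 15.9 CPM in the combination libraries, against 42.3, 32.3 and 35.6 CPM in the T-DM1 libraries, so the groups lay well apart (log2 fold change -1.32 ± 0.35 SE, adjusted p = 0.76). Tubb3, the neuronal beta-tubulin, was at 1.42, 0.473 and 1.03 CPM in the combination libraries, against 2.25, 1.92 and 2.12 CPM in the T-DM1 libraries (log2 fold change -1.10 ± 0.63 SE). Tubulin genes resemble one another, so the split of reads among them is uncertain. None of 7 drug efflux transporters tested, of 8 listed, was without overlap. Abcc1 was at 85.7, 62.5 and 85.1 CPM in the combination libraries, against 57.3, 46.4 and 63.0 CPM in the T-DM1 libraries (log2 fold change 0.48, 95% interval -0.35 to 1.32), and Abcc4 had a log2 fold change of -0.42 (95% interval -1.79 to 0.94).

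Of 20 lysosome and vacuolar ATPase genes, 2 had no overlap, both with the combination higher, near the share of all genes (8.41%). The median was 0.22. One was Slc46a3, whose human counterpart exports the DM1 metabolite of T-DM1 from lysosomes. It was at 37.3, 52.9 and 20.0 CPM in the combination libraries, against 18.7, 17.8 and 19 CPM in the T-DM1 libraries (log2 fold change 0.99 ± 0.30 SE, adjusted p = 0.775). Combination library 3 lay next to the T-DM1 libraries, so the difference came from combination libraries 1 and 2. The other was the lysosomal calcium channel gene Mcoln1, at 31.7, 34.1 and 28.8 CPM in the combination libraries, against 19.5, 27.5 and 22.1 CPM in the T-DM1 libraries (log2 fold change 0.45 ± 0.21 SE, adjusted p = 0.959).

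Inflammatory transcripts were lower at the median in the combination but mostly overlapped. Of 23 interferon-response genes, 4 had no overlap with the combination lower (7.81% of all genes), and all 23 were negative. The median was -0.74, or -0.42 both without T-DM1 library 1 and with the sex-linked term. Isg15, an interferon-induced ubiquitin-like modifier, was at 15.3, 14.2 and 22.2 CPM in the combination libraries, against 120, 25.1 and 66.4 CPM in the T-DM1 libraries (log2 fold change -2.03 ± 0.60 SE, adjusted p = 0.775). Gbp2, for an interferon-induced GTPase, overlapped at 37.8, 50.2 and 47.4 CPM in the combination libraries, against 183, 39.2 and 101 CPM in the T-DM1 libraries. T-DM1 library 1 was the highest in both. Of 25 chemokine genes, 4 had no overlap with the combination lower, and the median was -0.77. Cxcl3, a neutrophil-attracting chemokine, showed one of the largest differences of any gene named here: it was at 0.325, 0.197 and 0.221 CPM in the combination libraries, against 8.35, 40.9 and 4.09 CPM in the T-DM1 libraries (log2 fold change -6.14 ± 1.0 SE, 95% interval -8.31 to -3.97, adjusted p = 0.228). It was at 0, 0.111 and 0.0711 CPM with mobocertinib alone and at 79.3 and 25.6 CPM with vehicle. The B cell chemokine gene Cxcl13 was at 3.82, 4.84 and 3.50 CPM in the combination libraries, against 52.9, 7.03 and 11.3 CPM in the T-DM1 libraries (log2 fold change -2.55 ± 0.83 SE, adjusted p = 0.891), and was highest in the T-DM1 library with the most B cell transcripts. The T cell marker Cd8a was at 1.18, 1.77 and 1.51 CPM in the combination libraries, against 2.42, 0.650 and 1.57 CPM in the T-DM1 libraries, with a 95% interval of -2.26 to 2.15 on the log2 scale.

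Cell death genes had no common direction. Of 19 p53 targets, 2 had no overlap with the combination lower (7.81% of all genes) and none with it higher (8.41%). The median was -0.03. Gdf15, a stress cytokine gene, overlapped at 9.46, 6.77 and 3.54 CPM in the combination libraries, against 9.42, 51.3 and 21.7 CPM in the T-DM1 libraries. Aen, for a nuclease, was at 47.0, 39.9 and 37.4 CPM in the combination libraries, against 68.0, 49.6 and 65.3 CPM in the T-DM1 libraries (log2 fold change -0.56 ± 0.39 SE). In the BCL2 family of 17 genes, 1 had no overlap with the combination higher, Bcl2l11, whose values are given above, and 1 with it lower. The lower one was Bok, for a relative of BAX and BAK, at 9.26, 9.02 and 9.87 CPM in the combination libraries, against 25.2, 40.9 and 20.6 CPM in the T-DM1 libraries (log2 fold change -1.62 ± 0.46 SE, adjusted p = 0.76). Of 14 YAP and TEAD targets tested, of 16 listed, 4 had no overlap with the combination higher (8.41% of all genes) and none with it lower. Their median was 0.17. The phosphatase gene Ptpn14 was at 116, 96.9 and 110 CPM in the combination libraries, against 56.6, 51.6 and 64.0 CPM in the T-DM1 libraries (log2 fold change 0.90 ± 0.30 SE, adjusted p = 0.891). Tgfb2, a growth factor gene, was at 59.0, 64.7 and 39.8 CPM in the combination libraries, against 25.1, 17.3 and 21.7 CPM in the T-DM1 libraries (log2 fold change 1.35 ± 0.46 SE, adjusted p = 0.902).

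Squamous and basal cell markers were lower at the median (-0.90), and 2 of 11 had no overlap with the combination lower (7.81% of all genes). Their sum was 342, 184 and 396 CPM in the combination libraries, against 1113, 195 and 1161 CPM in the T-DM1 libraries, so T-DM1 library 2 lay among the combination libraries. Krt6a, a keratin of stressed squamous epithelium, was at 21.4, 8.74 and 37.3 CPM in the combination libraries, against 429, 51.0 and 373 CPM in the T-DM1 libraries (log2 fold change -3.66 ± 1.16 SE, adjusted p = 0.855). Sprr1a, for a cornified envelope protein, was at 21.3, 11.2 and 20.6 CPM in the combination libraries, against 37.9, 24.6 and 59.0 CPM in the T-DM1 libraries (log2 fold change -1.19 ± 0.57 SE). Krt6a resembles other type II keratin genes, so reads may be split among them. Of the B cell and plasma cell markers, 2 of 21 had no overlap. Fcer2a, for the IgE receptor of B cells, was at 4.38, 1.97 and 2.39 CPM in the combination libraries, against 8.86, 14 and 4.52 CPM in the T-DM1 libraries, whereas Ms4a1, for CD20, overlapped at 2.60, 1.46 and 0.589 CPM in the combination libraries, against 30.5, 1.92 and 1.10 CPM in the T-DM1 libraries. No muscle marker was without overlap in either direction. The cardiac actin gene Actc1 was at 4.47, 2.32 and 0.958 CPM in the combination libraries, against 83.8, 0.681 and 2.91 CPM in the T-DM1 libraries.

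The 20 genes with the smallest p, among those with a mean log2 CPM of at least 1, were picked out after their values were seen; 15 were lower and 5 higher in the combination, and none overlapped. Those lower included Dusp6, Cdc20, Cxcl3, Dusp5 and Kif20a, described above. Ivl, for involucrin of the cornified envelope, was at 2.31, 2.09 and 4.09 CPM in the combination libraries, against 30.9, 48.4 and 37.7 CPM in the T-DM1 libraries (log2 fold change -3.78 ± 0.73 SE, adjusted p = 0.391). Cers3, a ceramide synthase gene of the skin barrier, was at 2.52, 2.56 and 4.27 CPM in the combination libraries, against 15.4, 15.7 and 10.1 CPM in the T-DM1 libraries. In Ivl the T-DM1 libraries were alike, with none carrying the difference alone. Hunk, a kinase gene studied in HER2-positive mammary tumours of mice, was at 5.12, 5 and 5.31 CPM in the combination libraries, against 18.9, 28.1 and 18.1 CPM in the T-DM1 libraries (log2 fold change -2.08 ± 0.39 SE, adjusted p = 0.391). Arg1, for the arginase of alternatively activated macrophages, was at 13.0, 9.61 and 6.34 CPM in the combination libraries, against 102, 29.4 and 80.3 CPM in the T-DM1 libraries (log2 fold change -2.87 ± 0.63 SE, adjusted p = 0.455). Mlkl, for the pore-forming protein of necroptosis, was at 8.97, 5.51 and 8.99 CPM in the combination libraries, against 19.9, 17.2 and 17.1 CPM in the T-DM1 libraries (log2 fold change -1.21 ± 0.26 SE, adjusted p = 0.455).

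Among the 5 higher, Atp7b, a copper exporter gene, was at 91.3, 107 and 128 CPM in the combination libraries, against 30.7, 38.2 and 35.5 CPM in the T-DM1 libraries (log2 fold change 1.64 ± 0.33 SE, adjusted p = 0.406). Abca1, which exports cholesterol, was at 179, 190 and 213 CPM in the combination libraries, against 95.1, 60.3 and 98.6 CPM in the T-DM1 libraries (log2 fold change 1.20 ± 0.25 SE, adjusted p = 0.419). Neither gene overlapped between the groups, and for Abca1 T-DM1 library 2 lay below the other T-DM1 libraries. Tef, a clock-controlled transcription factor gene, was at 231, 205 and 221 CPM in the combination libraries, against 91.2, 71.0 and 108 CPM in the T-DM1 libraries (log2 fold change 1.28 ± 0.28 SE, adjusted p = 0.455). The other two were Prob1 and Gramd2, with log2 fold changes of 1.24 and 1.42.

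Across the 28 pathway lists, the share of members without overlap set mitosis (23 of 23), ERK output (12 of 19), DNA replication (14 of 23) and glycolysis and hypoxia (13 of 23) on the lower side and FOXO targets (11 of 16) on the higher side. Among 18 other receptor tyrosine kinases and their ligands, the usual candidates for bypass of HER2, 1 had no overlap with the combination higher and none with it lower, and the median was 0.01. Of 13 class I antigen presentation genes, 1 had no overlap with the combination lower, and likewise 1 of 12 class II genes. Of 24 cholesterol and fatty acid synthesis genes, 2 had no overlap in each direction. Over all genes the shares were 7.81% with the combination lower and 8.41% with it higher. Lists whose median changed sign under at least 1 other setting included tubulin, drug efflux, ribosomal protein, oxidative phosphorylation, p53, BCL2, bypass receptor and YAP. They also included ERBB receptors and ligands, class I and class II antigen presentation, immune checkpoint and NRF2 antioxidant genes.

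**Figure D5:**
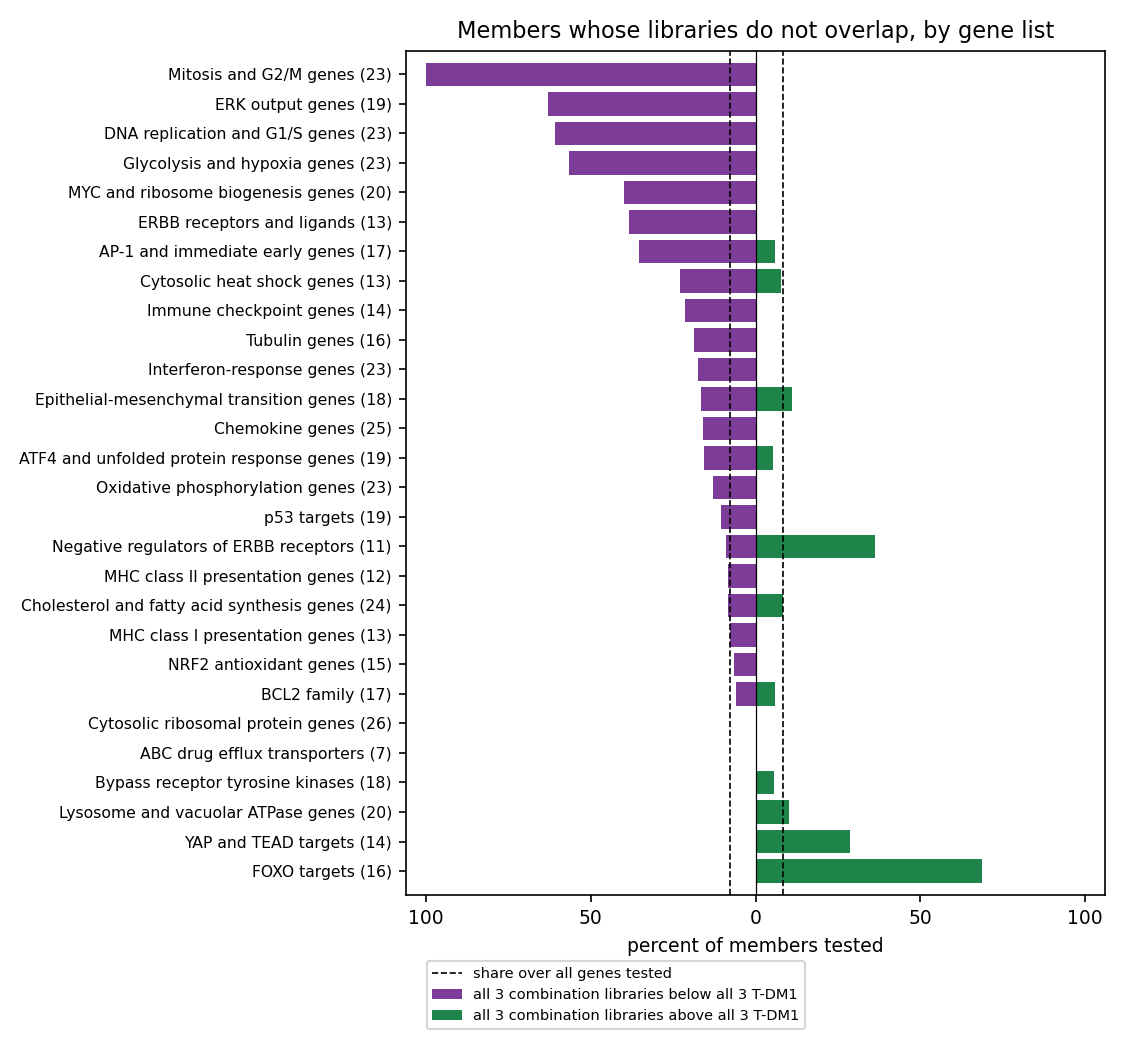
Percent of tested members (horizontal axis) whose 3 combination libraries all lay below (purple, to the left) or all above (green, to the right) the 3 T-DM1 libraries, for 28 pathway gene lists with the number of members tested in brackets. The dashed lines mark the shares over all genes, 7.81% below and 8.41% above. Mitosis and ERK output genes stand farthest to the left and the FOXO targets list farthest to the right.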

How the data were processed

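RNA libraries from lung tumor nodules were compared, 3 from combination-treated and 3 from T-DM1-treated mice. The tools named are STAR and RSEM, on mm10, per the submitters' processing notes; which step each did, versions, annotation and strand setting were not given in the sources used here. The authors deposited raw counts per gene symbol and TPM values, which are scaled by gene length and to the same total in each library. Counts were tested as deposited with edgeR 4.0.16 (R 4.3.3): TMM factors, filterByExpr by group, robust quasi-likelihood F-test, 1 mean per group over all 14 libraries (9 residual degrees of freedom), contrast combination minus T-DM1, Benjamini-Hochberg adjusted p under 0.05 over 17933 genes. CPM are TMM-normalized, except Xist and the Y-linked sum. The script was tested on simulated data. Depth was 22332188 to 31287261 counts per library; 1 CPM therefore stands for 22.3 to 31.3 counts, before TMM scaling.

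The 49 gene lists (28 pathway lists, 20 cell type lists and the sex-linked genes) and the libraries compared were chosen with earlier results of these data known. Named genes were called genes with the largest fold changes (0 here), the 2 members of each described list with the smallest p where none was called, and a panel of 14 genes; others are named as chosen after their values were seen. Gene positions and exon bases shared with neighbours come from GENCODE M21, and promoter windows from RefSeq (GRCm38.p6). Without a known strand setting, reads in shared exon bases cannot be assigned; these made up 23.4% of the exon bases of Ccnd1, 22.1% of Dusp5, 29.3% of Kif20a, 33.0% of Phlda1, 22.8% of Ube2c, 24.8% of Krt6a, 61.5% of Nppa and 12.6% of Xist, and under 10% for the other genes given with library values. Overlap means that the ranges of the 3 libraries of each group touch in normalized CPM, and some genes without overlap there overlapped as TPM. With 3 against 3 an exact permutation test cannot go below p = 0.10, so none was run. Alternatives were 21 planned and 2 chosen after seeing the data, among them DESeq2 1.42.0, limma 3.58.1 and log2(TPM + 1).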

Additional observations from a re-analysis of the deposited data

How the results depend on the processing

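Of the 23 alternatives, 20 called 0 genes, as did edgeR with all libraries, whose value was 0; leaving out each of the 6 libraries in turn gave 0 to 0. DESeq2 called 69, DESeq2 on the 6 libraries alone called 349, and edgeR with a non-tumor content covariate called 1 (Ivl); the cause was not tested. No paired analysis was possible because the labels give the 2 groups no shared replicate numbers. The sign of the fold change turned for 8 of the named genes, none of which passed in any of these fits. Egfr had log2 fold changes of 0.19 with limma-voom, 0.23 with log2(TPM + 1) with and without the filter, 0.32 with log2(TPM + 0.1) and 0.21 with the content term. Sftpc had 0.44 with limma-voom, 0.49 in all 3 TPM fits and 0.92 with the sex-linked term. Cd8a had 0.00126 with no filter, 0.17 with limma-voom, 0.43 with the sex-linked term and 0.52 with the content term. Pcna had 0.073, 0.074 and 0.073 in the TPM fits. With the sex-linked term, Ms4a1 had 1.15 and Cfd 3.10. On the 6 libraries without T-DM1 replicate 1, chosen after seeing the data, Egfr had 0.39, Cd8a 0.42, Ms4a1 0.027, Actc1 0.52 and Pcna 0.00283. Leaving out 1 library in turn gave -0.48 to 0.39 for Egfr, -0.32 to 0.042 for Cdkn1a, -0.81 to 1.29 for Sftpc, -0.42 to 0.42 for Cd8a, -3.44 to 0.015 for Ms4a1, -4.15 to 0.52 for Actc1, -9.98 to 2.44 for Cfd and -0.13 to 0.00754 for Pcna. The median over all genes was -0.04 in edgeR and 0.07 with log2(TPM + 0.1). The medians of the mitosis, ERK output, DNA replication, glycolysis and hypoxia, and FOXO lists kept their sign in all 23. Depth limits genes under 1 CPM, such as Cxcl3 in the combination, whose log2 fold change ranged over -6.61 to -3.62.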

Other observations

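Several circadian clock genes lay apart between the groups. Of 16 clock genes, chosen as a list after their values were seen, 8 had no overlap with the combination higher, 3 with it lower, and 5 overlapped. The shares of all genes are 8.41% higher and 7.81% lower. Because the list was chosen with its values known, setting its counts beside these shares is description only. Per3 was at 35.0, 40.2 and 31.6 CPM in the combination libraries, against 11.2, 14.9 and 17.8 CPM in the T-DM1 libraries (log2 fold change 1.28 ± 0.30 SE). Per1 was at 85.5, 74.9 and 129 CPM in the combination libraries, against 43.3, 47.8 and 41.2 CPM in the T-DM1 libraries (log2 fold change 1.13 ± 0.30 SE). Both encode repressors of the clock, as does Cry2, with a log2 fold change of 0.74 ± 0.23 SE. The 3 on the lower side were Arntl, Npas2 and Bhlhe40, while Clock, for the main partner of BMAL1, overlapped at 29.1, 23.9 and 28.5 CPM in the combination libraries, against 36.3, 29.4 and 27.6 CPM in the T-DM1 libraries. Arntl, for the activator BMAL1, was at 4.83, 5.04 and 2.76 CPM in the combination libraries, against 9.97, 20.3 and 5.34 CPM in the T-DM1 libraries (log2 fold change -1.50 ± 0.55 SE). Npas2, for another partner of BMAL1, was at 6.17, 2.28 and 2.06 CPM in the combination libraries, against 12, 14.3 and 8.05 CPM in the T-DM1 libraries (log2 fold change -1.71 ± 0.53 SE). Bhlhe40, a hypoxia-responsive repressor, was at 137, 98.8 and 74.5 CPM in the combination libraries, against 280, 188 and 173 CPM in the T-DM1 libraries (log2 fold change -1.05 ± 0.26 SE). None of these genes passed after adjustment in edgeR. DESeq2 on all libraries called Per3 (adjusted p = 0.0264) and Bhlhe40 (adjusted p = 0.0286). The labels give no time of day for the collection of the nodules, and its part in these differences was not tested.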
